A study of Mus musculus with 9 samples.

Results

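Heme is the iron porphyrin carried by cytochromes, myoglobin and many oxidases, and this section describes 9 genes for the enzymes that make or break it in cultured muscle precursor cells. The members were the rows of the deposited table whose symbol was Alas1, Alad, Uros, Urod, Cpox, Ppox, Fech, Hmox1 or Blvrb, and each symbol matched 1 row, so 9 of 53715 gene IDs were taken. RNA sequencing had been done on primary myoblasts, muscle precursor cells, from C57BL/10ScSn-Dmdmdx/J mice, a strain that carries the mdx mutation in the dystrophin gene. All cells were at passage 1, and both groups shared this strain and passage. Glycine had been supplied at 0.2 mM (3 libraries) or at 0.8 mM (6 libraries), with no untreated group. The labels give neither the age or number of the animals, nor the time of treatment, nor whether libraries came from separate cultures, so p-values measure the spread between these libraries, which may be technical. Each glycine level has its own library series in the labels, and a batch that followed those series cannot be told apart from glycine.

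Heme synthesis starts in the mitochondrion, where 5-aminolevulinate synthase joins glycine to succinyl-CoA. The product leaves for the cytosol, is built into a porphyrin ring there, and returns to the mitochondrion for the last steps, which end when ferrochelatase inserts iron. Heme oxygenase opens the ring to biliverdin, iron and carbon monoxide, and biliverdin reductase turns biliverdin into bilirubin. In most tissues the ubiquitous synthase, encoded by Alas1, sets the rate of the pathway and is repressed by heme.

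Values are in TPM, a measure of transcript abundance that is scaled per transcript length and can be compared between genes. The number of reads behind them is unknown. A mean stands with its SD, over 3 libraries for 0.2 mM and 6 for 0.8 mM. Changes are differences of log2(TPM + 1), 0.8 minus 0.2 mM, from limma over 10049 genes, and "rose" and "fell" stand for an adjusted p under 0.05. The 10 myoblast markers looked at were all measured, with Myod1 at 35.7 ± 4.55 and 69.3 ± 5.70 TPM and Pax7 at 0.712 ± 0.176 and 1.20 ± 0.312 TPM. Other cells' markers were present too, such as Lyz2 of macrophages and Ly6a of fibro-adipogenic progenitors, at up to 1013 ± 153 and 901 ± 37.1 TPM. In bulk samples, fewer cells of a type and less RNA per cell cannot be told apart.

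All 9 enzymes passed the filter of at least 1 TPM in at least 3 libraries. At 0.8 mM glycine 2 of them rose, Alas1 and Fech, the first and last enzymes of synthesis. Hmox1, the inducible heme oxygenase, fell, and 6 did not pass. Over all genes tested, 26.6% passed, 16.7% upward and 9.81% downward, so 3 of 9 is near the background and is not a result about these enzymes as a set. The median change of the 9 was 0.05 on the log2 scale, against 0.06 over all genes tested. Groups did not overlap for 2 of the 9, Fech and Hmox1, against 28.2% of all genes tested.

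**Figure D1:**
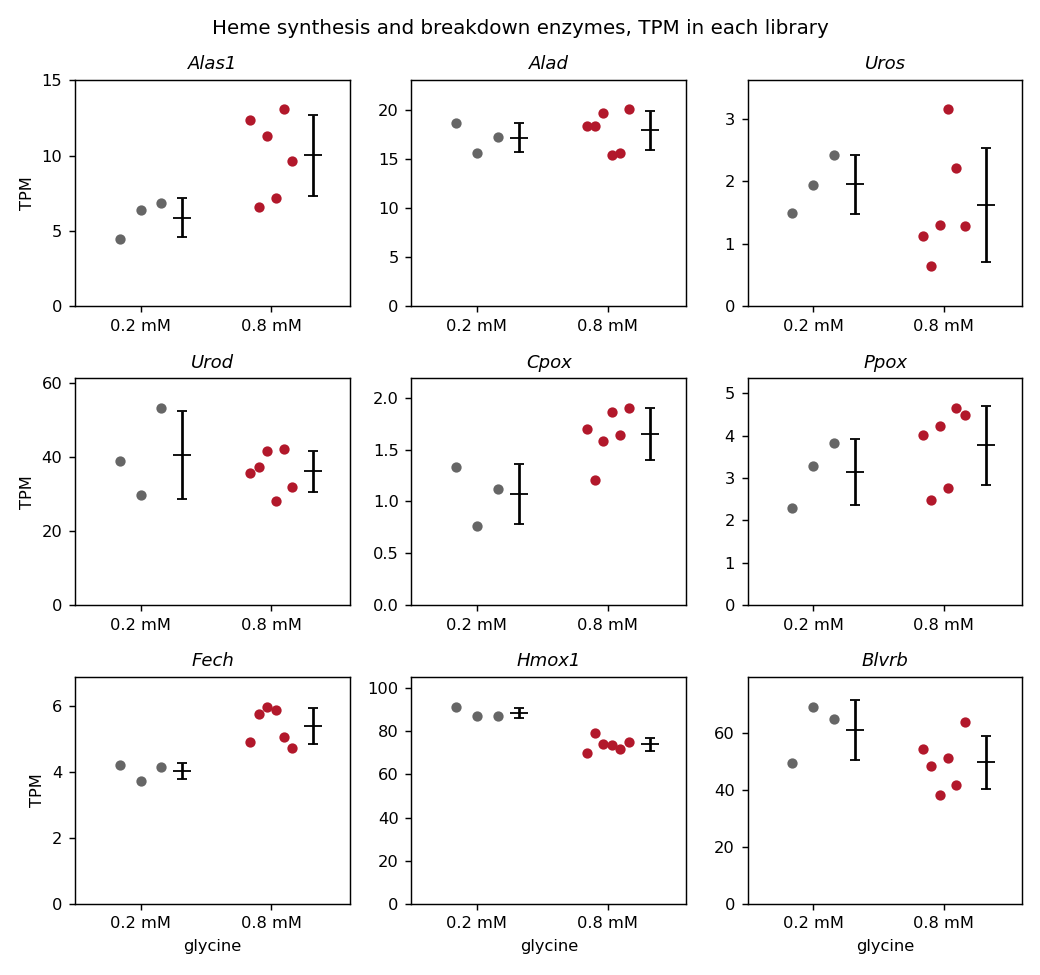
TPM of the 9 enzymes (vertical axes, from 0), with 1 point a library, grey for the 3 with 0.2 mM and red for the 6 with 0.8 mM glycine, and black bars for mean and SD. The groups are apart for Fech and Hmox1 and overlap for the other 7, with Alas1 overlapping by 1 library at 0.8 mM (6.58 TPM against a highest value of 6.84 TPM at 0.2 mM).

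The levels spanned a wide range. Hmox1 was the most abundant, at 88.6 ± 2.34 TPM with 0.2 mM and 73.9 ± 3.11 TPM with 0.8 mM glycine, above 93.0% of genes tested by its mean over all libraries. Blvrb and Urod followed, and Cpox and Uros were lowest, above 18.2% and 24.1% of genes tested. The order Hmox1, Blvrb, Urod, Alad, Alas1, Fech, Ppox was the same at both glycine levels, and only the last places, held by Uros and Cpox, changed. In that order the library ranges of Blvrb and Urod overlapped at both levels. So did those of Fech and Ppox and of Ppox and Uros at 0.2 mM, and those of Cpox and Uros at 0.8 mM. Such ranges do not compare these neighbours within a library. Within each of the 3 libraries at 0.2 mM the order of these neighbours held, and at 0.8 mM Blvrb exceeded Urod in 4 of 6 libraries and Cpox exceeded Uros in 4 of 6. Urod held 54.3 ± 5.85% of the summed TPM of the 7 synthesis enzymes at 0.2 mM and 47.1 ± 3.49% at 0.8 mM. That sum itself was 73.9 ± 13.9 and 76.5 ± 8.01 TPM, with ranges that overlapped (61.4 to 88.8 and 64.4 to 85.7 TPM).

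Alas1, whose enzyme uses glycine as a substrate, was at 4.45, 6.39 and 6.84 TPM in the libraries at 0.2 mM. At 0.8 mM its lowest value was 6.58, its median 10.5 and its highest 13.1 TPM. Of the 6 libraries, 5 stood above all those at 0.2 mM, and replicate 2 did not. Alas1 rose by 0.66 ± 0.22 (SE) on the log2 scale, from a mean of 5.89 ± 1.27 to 10.03 ± 2.70 TPM (limma adjusted p = 0.0460, 95% interval 0.18 to 1.14), the largest difference among the 9. Its spread within groups was wide, with coefficients of variation of 21.5% and 26.9%. The call was close to the threshold and was lost without 0.2 mM replicate 1 (adjusted p = 0.185), 2 (0.0835) or 3 (0.0604) and without 0.8 mM replicate 1 (0.0775), 3 (0.0810), 5 (0.0763) or 6 (0.0680). It was also lost with median-ratio scaling (0.0811), quantile normalization (0.0816) and no filter (0.113).

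Alas1 lies on chromosome 9 of GRCm38, from 106233455 to 106248654 on the minus strand, and is protein coding. A gene annotated as antisense, 4930500F10Rik, shares exon sequence with it and was listed at 0 in every library. Nuclear respiratory factor 1, which tunes mitochondrial genes, is known to act on the Alas1 promoter, so its site (GCGCA, any base, then GCGC) was searched on both strands in the 250 bases before each RefSeq start of the members (GRCm38.p6). Fech was left out of this search and no window was listed for Hmox1, so 7 of the 9 members were searched, with 11 windows in all. Alas1 had 2 starts, and the window of 1 of them (start at 106247730) held 2 matches that do not overlap each other. They are shown because Alas1 is the member that glycine feeds, each as 30 bases on the minus strand with the match in capitals.
Alas1 match 1, chr9:106247935-106247964: gcttcggcgcGCGCGTGCGCgcggcaggcc
Alas1 match 2, chr9:106247906-106247935: cgcacccaagGCGCATGCGCggcggtcact
The matches lie 89 and 60 bases before the transcript start at 106247856 and inside the first exon of a longer transcript that starts at 106248654, by GENCODE M21. Such a match was found in 2 of the 11 windows of members, the other being 1 of Uros, and in 3.74% of 32851 windows over all genes. The antioxidant response element core TGACNNNGC and the C/EBP-ATF element TGATGNAA were matched in 0 of these 11 windows, against 10.2% and 3.45% of all windows. A match is a string of letters, not a bound site. The Nrf1 gene itself was at 5.49 ± 1.00 and 3.39 ± 1.12 TPM, which did not pass (limma adjusted p = 0.0541).

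The members that act in the cytosol did not pass. Alad, which joins aminolevulinate molecules in pairs, was at 15.6, 17.2 and 18.6 TPM at 0.2 mM, and its lowest, median and highest values at 0.8 mM were 15.4, 18.4 and 20.1 TPM. The 0.2 mM range lay inside the 0.8 mM range, and the difference of 0.05 ± 0.11 (SE) had a 95% interval of -0.18 to 0.29 (limma adjusted p = 0.763). It turned below 0 with median-ratio scaling (-0.03), with quantile normalization (-0.04) and without 0.2 mM replicate 2 (-0.01).

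Uros, which closes the porphyrin ring, was low, at 1.49, 1.94 and 2.42 TPM at 0.2 mM and with a lowest value of 0.646, a median of 1.29 and a highest of 3.15 TPM at 0.8 mM. Replicates 4 and 5 at 0.8 mM were the high ones and replicate 2 the low one, and the 0.8 mM libraries spanned the whole range of the others. Its coefficient of variation at 0.8 mM, 55.9%, was the widest of the 9. Its difference was -0.23 ± 0.26 (SE), with a 95% interval of -0.81 to 0.36 (limma adjusted p = 0.589).

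Urod, which decarboxylates the ring, was the most abundant of the synthesis enzymes, at 29.6, 38.9 and 53.3 TPM at 0.2 mM. At 0.8 mM its lowest value was 28.1, its median 36.5 and its highest 42.3 TPM. The high value of 0.2 mM replicate 3 stood outside the 0.8 mM range, while the other two lay inside it. The difference was -0.14 ± 0.18 (SE), with a 95% interval of -0.53 to 0.25 (limma adjusted p = 0.624), and it was 0.07 without that replicate.

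In the mitochondrial steps, Cpox, the oxidase that acts first there, was at 0.760, 1.12 and 1.33 TPM at 0.2 mM, and its lowest, median and highest values at 0.8 mM were 1.21, 1.67 and 1.90 TPM. Replicate 2 was the only library at 0.8 mM to fall within the 0.2 mM range. The difference of 0.36 ± 0.15 (SE) did not pass (limma adjusted p = 0.0974), with a 95% interval of 0.04 to 0.68 before adjustment. Cpox lies near the filter, so log2(TPM + 1) compresses its change: the ratio of its means was 1.54.

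Ppox, the next oxidase, was at 2.30, 3.29 and 3.84 TPM at 0.2 mM, with a lowest value of 2.47, a median of 4.13 and a highest of 4.65 TPM at 0.8 mM. Replicates 2 and 4 at 0.8 mM were low and inside the range of the 0.2 mM libraries, and the other four were above it. The difference was 0.20 ± 0.20 (SE), with a 95% interval of -0.24 to 0.63 (limma adjusted p = 0.512). Exons of Ppox (chromosome 1, 171275990 to 171281186, minus strand) overlap those of B4galt3 on the other strand. Since the use of strand is not given in the sources used here, reads of the pair may not have been told apart. B4galt3 was at 4.79 ± 1.04 and 4.26 ± 0.788 TPM. Cpox shares exon sequence with Gpr15, which did not exceed 0.151 TPM in any library.

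Fech, ferrochelatase, which puts iron into the ring, was at 3.74, 4.14 and 4.22 TPM at 0.2 mM. At 0.8 mM its lowest value was 4.74, its median 5.41 and its highest 5.98 TPM. Every library at 0.8 mM stood above every library at 0.2 mM. Fech rose by 0.34 ± 0.11 (SE) on the log2 scale, from 4.03 ± 0.257 to 5.39 ± 0.543 TPM (limma adjusted p = 0.0434, 95% interval 0.10 to 0.59). The call was lost without 0.2 mM replicate 1 (adjusted p = 0.0841), 2 (0.148) or 3 (0.0888) and without 0.8 mM replicate 2 (0.0746), 3 (0.0808), 4 (0.0766) or 5 (0.0564). It was also lost with median-ratio scaling (0.0859), quantile normalization (0.0759) and no filter (0.0585).

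**Figure D2:**
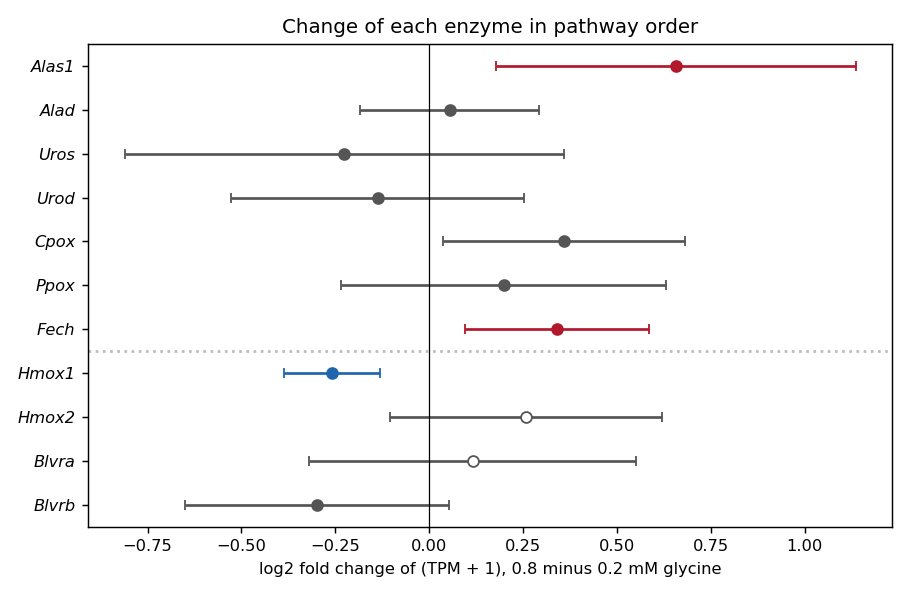
Difference of log2(TPM + 1), 0.8 minus 0.2 mM glycine, with its 95% interval from limma, for synthesis enzymes in pathway order and, under the dotted line, breakdown enzymes; filled points are the 9 members, open points other enzymes, red rose, blue fell, grey did not pass. The largest difference is that of Alas1 at 0.66, and Hmox1 at -0.26 has the narrowest interval, from -0.39 to -0.13.

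Hmox1, the heme oxygenase induced by heme and by oxidative stress, moved the other way from Alas1 and Fech. It was at 87.3, 87.3 and 91.3 TPM at 0.2 mM, and its lowest, median and highest values at 0.8 mM were 70.0, 73.8 and 79.2 TPM. The groups were apart, with replicate 2 the highest library at 0.8 mM. Hmox1 fell by 0.26 on the log2 scale, with an SE of 0.06 (limma adjusted p = 0.00640, 95% interval -0.39 to -0.13), so its mean fell by 16.6%. It was the least variable of the 9, with coefficients of variation of 2.63% and 4.21%. The call held with any 1 library left out, with an adjusted p from 0.00503 to 0.0365, and was lost with only libraries 1 to 3 of each group (0.0503). Hmox1 lies on chromosome 8 of GRCm38, from 75093621 to 75100589 on the plus strand, and no other gene shares its exons.

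Macrophages, which recycle heme from red cells, also make Hmox1. Of 15 macrophage markers, 12 were tested, 4 rose (Lyz2, Tyrobp, Itgam and Cd14), 1 fell (Cd68) and 7 did not pass. That is 33.3% upward and 8.33% downward, beside 16.7% and 9.81% of all genes tested. Itgam, at most 0.778 TPM at 0.2 mM, passed the filter only through the 0.8 mM group, so these shares are not a test. Mrc1, at 0.279 ± 0.0289 and 0.155 ± 0.0716 TPM, did not overlap between groups but was under the filter. The summed level of the 15 markers was 1878 to 2052 TPM at 0.2 mM and 2072 to 2524 TPM at 0.8 mM. Large terms of that sum differed: Lyz2 went from 588 ± 30.6 to 1013 ± 153 TPM and Cd68 from 182 ± 13.6 to 57.6 ± 2.38 TPM. Fcer1g, at 949 ± 39.2 and 888 ± 36.3 TPM, did not pass. The receptor for hemoglobin, Cd163, was listed at 0 in the 0.2 mM libraries and averaged 0.0292 TPM at 0.8 mM, and Spic, a factor of heme-recycling macrophages, stayed under the filter at 0.627 ± 0.237 and 0.267 ± 0.188 TPM. The part of these cells in the Hmox1 result was not tested.

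Hmox2, the constitutive oxygenase and no member, was at 8.97, 10.9 and 12.3 TPM at 0.2 mM and from 10.2 to 16.1 TPM at 0.8 mM, and did not pass (limma adjusted p = 0.284). Hmox1 exceeded Hmox2 in every library, by 7.45 to 9.73 times at 0.2 mM and by 4.61 to 7.02 times at 0.8 mM. These ratios did not overlap between the groups.

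Blvrb, a reductase of biliverdin and flavins, was at 49.4, 64.9 and 69.3 TPM at 0.2 mM, with a lowest value of 38.2, a median of 49.9 and a highest of 64.1 TPM at 0.8 mM. Replicate 1 at 0.2 mM lay inside the 0.8 mM range, and the other two stood above it. Its difference, -0.30 ± 0.16 (SE), was of the size of that of Hmox1 but did not pass (limma adjusted p = 0.203), with a 95% interval of -0.65 to 0.05. Blvra, the main biliverdin reductase and no member, was at 6.44 ± 0.894 and 7.21 ± 1.91 TPM, without passing (limma adjusted p = 0.718). Hmox1 and Blvrb together held 141 to 157 TPM at 0.2 mM and 112 to 139 TPM at 0.8 mM.

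Whether the enzymes vary together from library to library could not be decided here. With 6 libraries and 36 pairs, 1 pair alone could not pass adjustment, however strong its correlation, so a lack of passes decides nothing. Over the 6 libraries at 0.8 mM, 36 pairs of members were correlated by TPM, 16 above 0 and 20 below 0, and no pair passed adjustment (smallest Benjamini-Hochberg adjusted exact permutation p = 0.838 for Pearson's r and 0.740 for Spearman's rho). The only pair with an unadjusted p under 0.05 was Alas1 with Ppox (r = 0.872, exact permutation p = 0.0375, and rho = 0.771, exact permutation p = 0.103). It rested on the 2 libraries farthest from the median of Alas1, without which r was -0.0420. Alas1 stood at 1.78 to 1.94 times the level of Ppox at 0.2 mM and at 2.14 to 3.08 times at 0.8 mM.

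The erythroid form of the first enzyme, Alas2, which red cell precursors use, was listed at 0 in all libraries but 1 (0.0853 TPM in 0.2 mM replicate 2). The red cell genes Epb42, Slc4a1, Gata1 and Hbb-bt were listed at 0 in every library. The other globin genes were not at 0 throughout. Hba-a2 was at 0.418 ± 0.430 and 0.681 ± 0.393 TPM and Hbb-bs at 0.611 ± 0.577 and 0.433 ± 0.390 TPM. Hba-a1, at 0 with 0.2 mM, reached 0.893 TPM with 0.8 mM, and the red cell factor gene Klf1 reached 0.215 TPM. Of the 10 red cell markers found in the table, the transferrin receptor gene Tfrc, which other cells also make, was the only one tested, and it rose from 5.60 ± 1.05 to 11.4 ± 1.61 TPM (limma adjusted p = 6.96e-04).

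Genes that supply the pathway or carry heme were looked at as a list. Of 20, 17 were tested, 4 rose, 2 fell and 11 did not pass, or 23.5% upward and 11.8% downward, near the 16.7% and 9.81% of all genes tested, and their median change was 0.10. Slc48a1, which moves heme out of lysosomes, was at 42.0, 42.5 and 45.7 TPM at 0.2 mM and from 20.5 to 24.1 TPM at 0.8 mM. It fell by 0.91 on the log2 scale (limma adjusted p = 6.61e-06), and no library of one group came near the other. Slc25a37, mitoferrin 1, which brings iron into mitochondria, was at 12.6, 13.4 and 18.5 TPM at 0.2 mM and from 5.03 to 6.81 TPM at 0.8 mM, and fell by 1.17 (limma adjusted p = 7.84e-05). Fech, whose enzyme uses mitochondrial iron, rose while this carrier fell. Those that rose were Suclg1, Clpx, Hebp2 and Abcg2. Suclg1, a subunit of the ligase that interconverts succinyl-CoA and succinate, rose from 22.5 ± 1.21 to 29.03 ± 1.76 TPM. Clpx, a mitochondrial unfoldase that activates the synthase protein, rose from 2.22 ± 0.270 to 3.40 ± 0.273 TPM, and its call was lost without 0.2 mM replicate 2 (0.0734). Hebp2, a heme-binding protein gene, rose by 0.50, with its call lost without 0.2 mM replicate 1 (0.0719) or 3 (0.0923). Abcg2, an exporter of porphyrins, rose by 0.58, and it missed the threshold without any 1 of 6 libraries (0.2 mM replicates 2 and 3 and 0.8 mM replicates 2, 4, 5 and 6, adjusted p from 0.0546 to 0.182). Abcg2 also missed it with no filter (0.0953), median-ratio scaling (0.0508), quantile normalization (0.0697), the 10 most abundant genes taken out (0.0509) and library weights (0.0521). Its mean at 0.2 mM was 0.774 TPM, and it passed the filter through the 0.8 mM group. Slc25a38, the mitochondrial glycine carrier of heme synthesis, was at 1.89 ± 0.240 and 1.73 ± 0.504 TPM, without passing (limma adjusted p = 0.728).

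The regulators of Alas1 and Hmox1 formed another list. Of 14 listed, 11 were tested with limma, 0 rose, 4 fell and 7 did not pass, and at an unadjusted p under 0.05 the counts were 0 and 5. That is 36.4% downward, beside 9.81% of all genes tested, and 0 upward, beside 16.7%. The list was chosen with earlier results of these data known, so these shares are not a test. The 0 rises among 11 are not a result about the list. Nfe2l2, which encodes the factor NRF2 that induces Hmox1, was at 41.2, 49.0 and 49.5 TPM at 0.2 mM and from 26.0 to 31.2 TPM at 0.8 mM. It fell by 0.65 (limma adjusted p = 3.03e-04), while Bach1, the heme-sensing repressor of Hmox1, was at 2.14 ± 0.115 and 1.99 ± 0.562 TPM, without passing (limma adjusted p = 0.750). Atf4, of the amino acid response, fell from 169 ± 19.2 to 69.4 ± 5.61 TPM. The heme-binding nuclear receptor genes Nr1d1 and Nr1d2 fell by 0.63 and 0.56. The call for Nr1d1 was lost without 0.2 mM replicate 3 (0.0574). That for Nr1d2 was lost without 0.2 mM replicate 1, 2 or 3 (0.0710, 0.121 and 0.118) or 0.8 mM replicate 3 or 5 (0.0700 and 0.0656), with a pseudocount of 0.1 (0.0589) and with no filter (0.0923). Ppargc1a, a coactivator of Alas1, stayed under the filter, at 0.0270 ± 0.0468 and 0.0460 ± 0.0449 TPM.

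Of 18 other targets of NRF2 and BACH1, 14 were tested with limma, 0 rose, 5 fell and 9 did not pass, with 0 up and 5 down at an unadjusted p under 0.05. That is 35.7% downward, beside 9.81% of all genes tested, and 0 upward, beside 16.7%. The list was chosen with earlier results of these data known, so these shares are not a test. Those that fell were Ftl1 and Fth1 of iron-storing ferritin, Gclm of glutathione synthesis, Txnrd1 and G6pdx. Ftl1 fell by 0.98 and Gclm by 0.76, and the list's median was -0.10, against -0.26 for Hmox1. Fth1, at 37837 ± 1766 and 29582 ± 879 TPM, fell by 0.35, and its difference was 0 with quantile normalization, where a gene that keeps the same rank in every library keeps 1 value. Nqo1, often used as a marker of NRF2 activity, was at 0.818 ± 0.145 and 0.812 ± 0.324 TPM and was not tested. Gclc, at 1.12 ± 0.185 and 0.543 ± 0.152 TPM, was under the filter too, as was Slc40a1, at 0.647 ± 0.137 and 0.249 ± 0.0799 TPM. Neither overlapped between the groups.

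**Figure D3:**
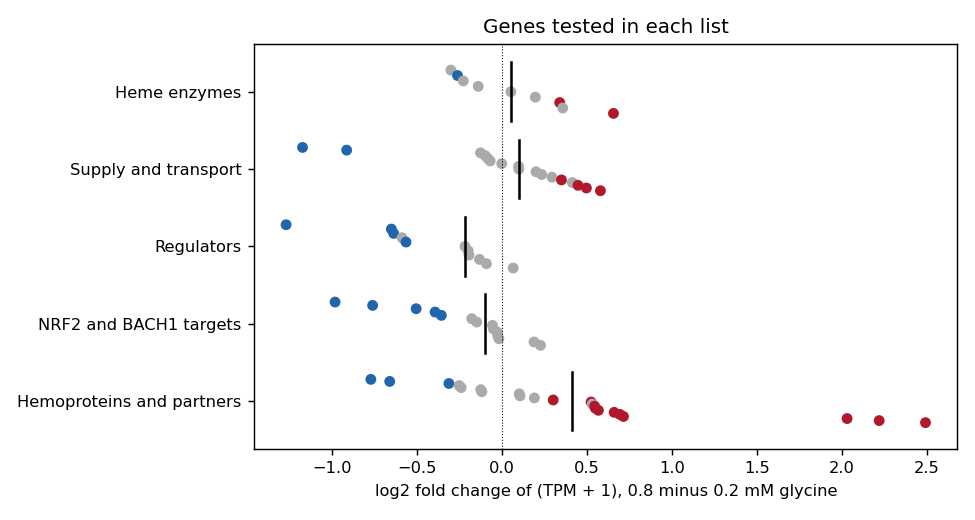
Each point is 1 tested gene, with its difference of log2(TPM + 1), 0.8 minus 0.2 mM glycine, on the horizontal axis, grouped by list; red rose, blue fell, grey did not pass, and black bars mark medians. The 9 heme enzymes lie between -0.30 and 0.66, a narrower range than the hemoproteins and their partners, which reach 2.49 for Mb.

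Proteins that carry heme, and their partners, held more rises. Of 34 listed, 22 were tested, 11 rose, 3 fell and 8 did not pass, or 50% upward against the 16.7% of all genes, with a median of 0.41. This list too was chosen with earlier results of these data known, so the share is not a test. Mb, myoglobin, which stores oxygen in muscle, was at 4.03, 4.06 and 4.20 TPM at 0.2 mM and from 24.4 to 33.7 TPM at 0.8 mM, and rose by 2.49 (limma adjusted p = 5.20e-08). Cyp51, a cytochrome P450 of cholesterol synthesis, rose by 2.22 and Nos2, the inducible nitric oxide synthase, by 2.03. Cyp51 was at most 0.782 TPM at 0.2 mM and passed the filter only through the 0.8 mM group. Cyc1, cytochrome c1, went up from 42.5 ± 1.75 to 63.6 ± 5.28 TPM. Cycs, cytochrome c, went up from 40.9 ± 0.543 to 50.8 ± 3.64 TPM, a call lost with quantile normalization (0.0613). Uqcrc1 and Cyb5r3, which also rose, carry no heme themselves. The 3 that fell were Cyba and Cybb, the cytochrome b558 subunits of phagocytes, and Cyp1b1. Cyba fell from 528 ± 24.7 to 334 ± 14.5 TPM, and Cybb by 0.31, with its call lost without 0.2 mM replicate 1 or 3 (0.0712 and 0.170) or 0.8 mM replicate 1, 5 or 6 (0.0637, 0.0561 and 0.0616), with no filter (0.0837) and with eBayes without trend (0.0738). The enzymes that modify or attach heme, Cox10, Cox15 and Hccs, did not pass. Summed myoblast markers were at 446 to 518 TPM with 0.2 mM and 915 to 1146 TPM with 0.8 mM glycine. By limma 6 of 10 rose, 1 fell (Vcam1) and 3 did not pass (Pax7, Cd82 and Msc). The largest terms of that sum were Myog, at 247 ± 16.9 and 523 ± 41.2 TPM, and Des, at 104 ± 12.8 and 356 ± 30.5 TPM. The part of myoblasts in the changes of the hemoprotein list was not tested.

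**Figure D4:**
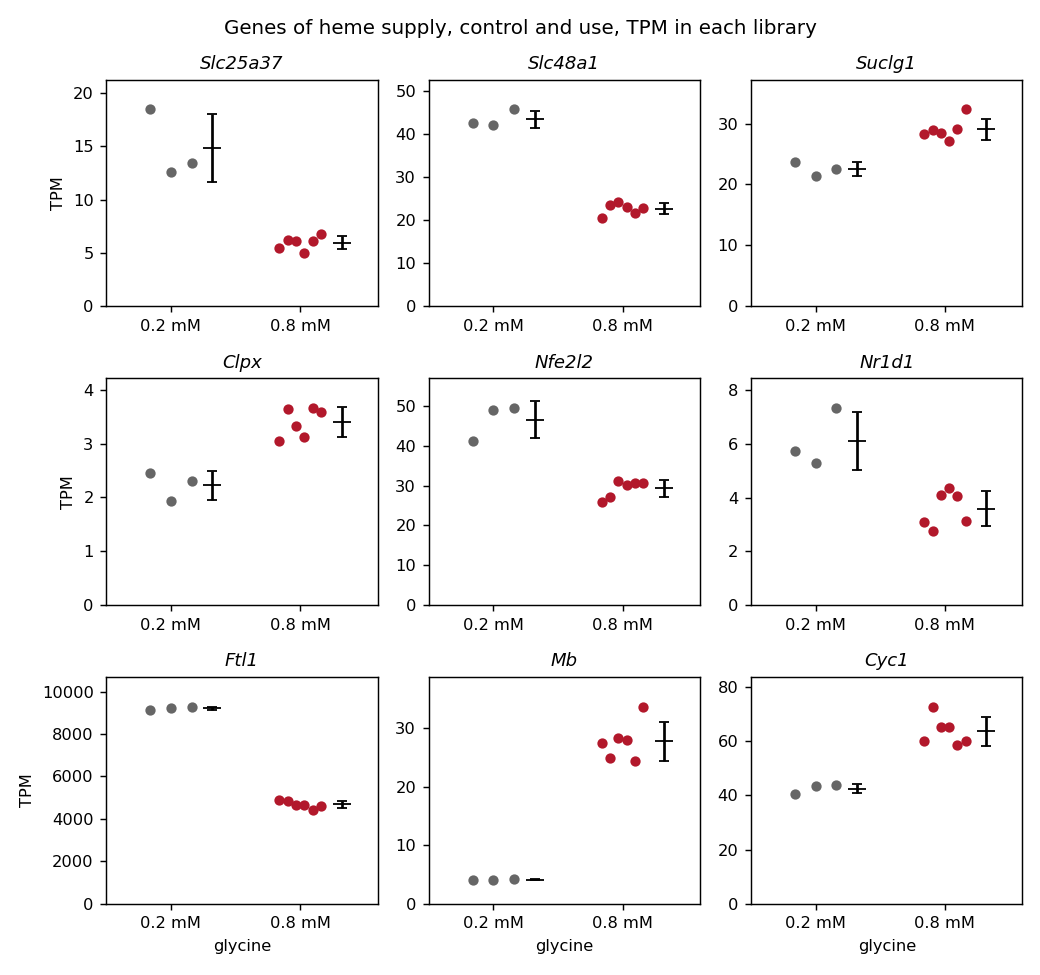
TPM of 9 genes of heme supply, control and use (vertical axes, from 0), with 1 point a library, grey for the 3 with 0.2 mM and red for the 6 with 0.8 mM glycine, and black bars for mean and SD. The groups do not overlap in any panel, as for Slc48a1 at 43.4 and 22.6 TPM and Mb at 4.10 and 27.8 TPM on average. All 9 were picked from genes that rose or fell in these data, so the lack of overlap is not a test. Over all genes tested, 28.2% did not overlap.

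Among library measures, at least 1 TPM was reached by 8979 to 9243 genes at 0.2 mM and 9321 to 9457 at 0.8 mM (exact permutation p = 0.0238, two-sided, the smallest the design allows). Summed markers of fibroblasts were at 2311 to 2691 TPM with 0.2 mM and 2717 to 3288 TPM with 0.8 mM glycine. By limma 7 of 10 rose and 0 fell (7 and 0 at an unadjusted p under 0.05), or 70% upward beside 16.7% of all genes tested. Among the 7, Pi16 was at most 0.977 TPM at 0.2 mM and passed the filter only through the 0.8 mM group. The largest terms of that sum differed: Dcn, at 1878 ± 184 and 1689 ± 209 TPM, did not pass, and Ly6a went from 313 ± 19.6 to 901 ± 37.1 TPM. Summed markers of endothelial cells were at 27.6 to 33.5 and 39.2 to 58.4 TPM. Of 10 listed, 6 were tested and 4 stayed under the filter, and 5 rose, or 83.3% of those tested. Pecam1 and Cdh5 rose but were under 1 TPM in every 0.2 mM library, at most 0.918 and 0.875 TPM. They passed the filter only through the 0.8 mM group, so this share is not a test. The part of fibroblasts and endothelial cells in the changes of Alas1, Fech and Hmox1 was not tested. Ribosomal RNA genes held 21.3 to 24.7% and 18.7 to 22.5% of TPM, ranges that overlap (exact permutation p = 0.167), and TPM of every other gene depend on that share. With those genes taken out and TPM rescaled, Hmox1 passed (limma adjusted p = 0.00489), and Alas1 (0.0525) and Fech (0.0737) did not.

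**Figure D5:**
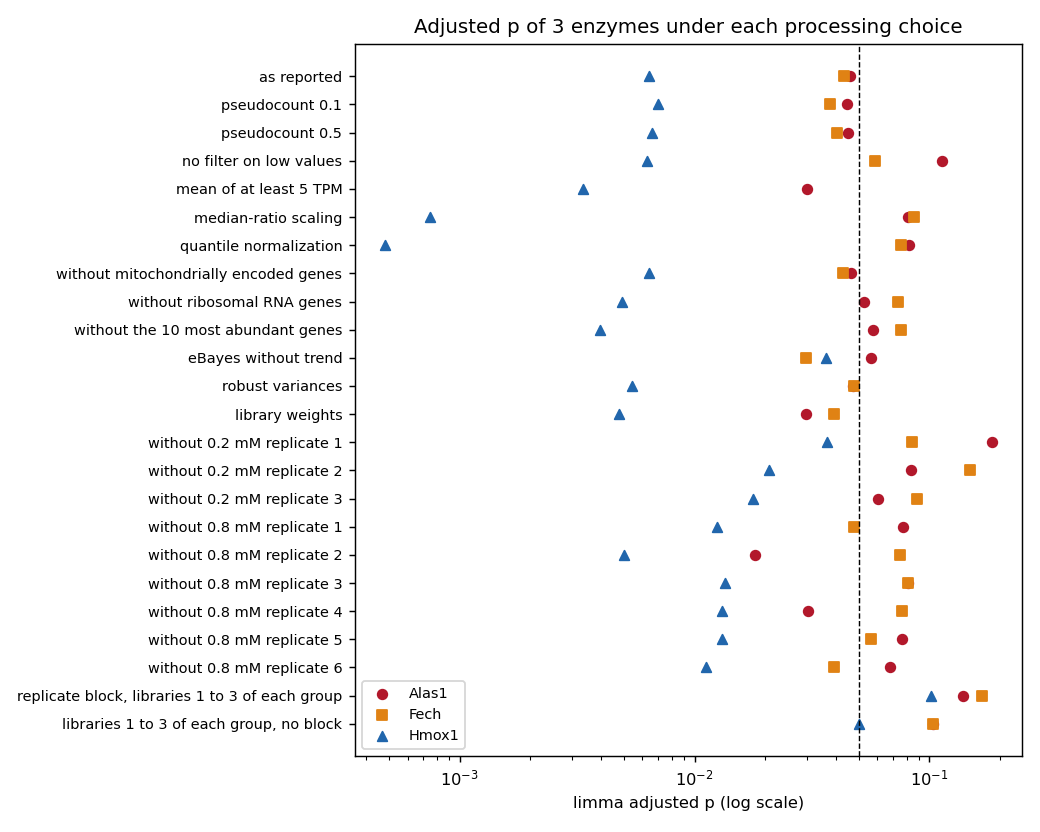
Limma adjusted p (horizontal, log scale) of Alas1 (red circles), Fech (orange squares) and Hmox1 (blue triangles) as reported and under each other processing choice (vertical), with a dashed line at 0.05; Fech has no value at a mean of at least 5 TPM. Hmox1 stays left of the line except with libraries 1 to 3 of each group, at 0.102 with the block and 0.0503 without it, while Alas1 and Fech lie on both sides of it.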

How the data were processed

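The authors deposited 1 table of TPM for 53715 gene IDs in 9 libraries, made from Trizol-extracted RNA and Illumina TruSeq libraries, per the labels' protocols. Per the submitters' processing notes, HISAT2 2.0.5, StringTie 1.3.3, DESeq2 and mm10 were used, in roles and with an annotation and strand setting not given in the sources used here. TPM scale each library to the same sum, so an abundant RNA lowers all other values, and they keep no read numbers, so precision rests on how libraries of a group spread. No 2 libraries were identical, and 8 of 8 genes in general use were above 0 in every library.

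Because TPM are not counts, limma 3.58.1 (R 4.3.3; lmFit, eBayes with trend, two-sided) was run on log2(TPM + 1) for genes with at least 1 TPM in at least 3 libraries, 10049 in all, with Benjamini-Hochberg adjustment over all of them and a threshold of 0.05. The fit was tested on simulated data. Positions came from GENCODE M21 (GRCm38, matched by ID for 53620 IDs) and promoter windows from RefSeq (GRCm38.p6). Correlations used exact permutation over 720 orders. Figures used matplotlib 3.10.9.

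All 9 members are described. Of the other lists, the rule named fixed genes, up to 4 with the smallest p and those behind counts of 5 or fewer. Named after their values were seen were Nrf1, Nqo1, Gclc, Slc40a1, Cyc1, Cycs, Uqcrc1, Cyb5r3, Cox10, Cox15 and Hccs. So were the cell type markers that stand alone. Members, lists, motifs and rule were chosen with earlier results of these data known. Flvcr1 is not analysed here, and some genes of the lists are not reported here. Alternatives were pseudocounts of 0.1 and 0.5, other filters, scalings and variance models, each library left out, and the library number as a block, which no label ties to a shared culture or day.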

Additional observations from a re-analysis of the deposited data

Results flagged for a closer look

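In 1 of 37 named genes, a library at 0.8 mM glycine stood far from the other 5. Suclg1 was at 32.3 TPM in replicate 6, while the nearest library was at 29.02 TPM and the lowest at 27.2 TPM. The gap held 0.641 of the range, above Dixon's 95% critical value for 6 libraries, a level that chance passes in about 1 of 20 groups. None of the 9 heme enzymes had such a library at 0.8 mM, and the 3 libraries at 0.2 mM are too few for the check.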

How the results depend on the processing

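The 2 heme enzymes that rose were 0 with no filter on low values, median-ratio scaling, quantile normalization, with ribosomal RNA genes or the 10 most abundant genes taken out, and with libraries 1 to 3 of each group with or without the block. In these limma fits 1 to 3 rose at an unadjusted p under 0.05. The count was 1 at a mean of at least 5 TPM (where Fech was not tested) and with eBayes without trend, and 0 to 1 with a library left out. The 1 that fell, Hmox1, was 0 only with libraries 1 to 3, with or without the block (2 at an unadjusted p under 0.05). The cause was not tested, though these fits hold fewer samples. No direction changed for Alas1, Fech or Hmox1. Differences turned for Alad, to -0.0265 with median-ratio scaling and -0.0433 by quantile normalization, and ranged from -0.00735 (without 0.2 mM replicate 2) to 0.112 with 1 library left out. With 1 left out, that of Urod ranged from -0.339 to 0.0735 (without 0.2 mM replicate 3).

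Over all genes, 1683 rose and 986 fell. With the library number as a replicate block, 1157 rose and 625 fell, against 1318 and 748 in the same libraries without it. Same-numbered libraries barely deviated together (correlations of 0.0229, 0.0300 and 0.0812), and not every library correlated best with its own number, so the numbers were not taken as pairs. Rises made up 63.1% of calls, 52.4% after median-ratio scaling and 49.8% after quantile normalization. With libraries 1 to 3 of each group, with or without the block, the calls for Clpx, Hebp2, Abcg2, Nr1d2 and Cybb were also lost, and those for Suclg1 and Txnrd1 with the block alone. Depth is unknown. Uros had the widest SE of the 9, 0.26 on the log2 scale.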

Other observations

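The E-box CACGTG was found in 4 of the 11 promoter windows of the heme enzymes, those of Alad, Urod and Uros, against 6.02% of all windows. These 11 windows do not cover Fech, which was left out of the search, or Hmox1. The 2 windows of Alad overlap, so windows are not independent. The GC box GGGCGG, searched on both strands like the E-box, was found in 6 of the 11, against 32.7%. Other motifs were searched too: the general E-box CANNTG was in 6 of the 11, against 66.2%. CCAAT was in 4, against 33.8%, and TATAAA in 0, against 12.4%. The GC content of the 11 windows ran from 48.8% to 74.4%, against a mean of 53.2% over all windows. These counts are not a test. The members with the E-box CACGTG did not pass in the comparison of glycine levels.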
